A study of Mus musculus with 12 samples.

Results

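Hyaluronan is the sugar polymer that cumulus cells spin out around the oocyte after the ovulatory surge, and the 7 genes described here make it, bind it or cut it. They are Has2, Tnfaip6, Ptx3, Vcan, Cd44, Cemip and Hyal2. The rows were taken by gene symbol, through the Ensembl identifiers of the mouse annotation, from 29101 genes listed for mural granulosa cells (MGCs, which line the follicle wall) and 33137 listed for cumulus cells. All 7 are among the 26382 genes that both cell types share, and they were picked by role, with earlier results of these data known.

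As background, hyaluronan synthase extrudes the polymer through the plasma membrane, and by itself the polymer does not hold as a gel. Heavy chains from serum are transferred onto it, pentraxin 3 joins the heavy chains, and versican and cell surface receptors tie the mesh to the cells. In the preovulatory follicle, LH acts on MGCs, which release EGF-like ligands, and these ligands start cumulus expansion together with oocyte factors.

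RNA was sequenced from both cell types at 2 h post-hCG, with 3 libraries for each genotype and 12 in all. The WT animals were C57/BL6 mice. The animals labelled Sphk1/2gc-/- lacked Sphk1 throughout the body and carried floxed Sphk2 (loxP sites at exons 4 and 6) with Fshr-Cre, a recombinase made in granulosa cells, so that cells other than granulosa cells lacked Sphk1 as well. Females of both genotypes were 21 to 23 days old and had received 5 IU eCG, then 5 IU hCG 48 h later, and hence no group is without the ovulatory stimulus. The labels do not say whether the 3 libraries of a group came from separate animals, so the p-values measure the spread between libraries only.

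The values are FPKM, which are fragment counts normalised for exon length and for library size. The reads recovered from them came to 16100364 to 19761604 per library. Sphk2 was at 4.51 to 6.29 FPKM in MGCs labelled Sphk1/2gc-/- and at 5.18 to 5.86 in WT MGCs, and a value over the whole gene cannot check the loss of single exons. Exons of Sphk2 also overlap those of Rpl18 by 373 bases and those of Dbp by 539, both on the other strand. Sphk1 was at 0.0699 to 0.0954 FPKM in WT cumulus cells. In cumulus libraries 1 to 3 labelled Sphk1/2gc-/- it was at 0.0778, 0.456 and 0.557 FPKM (7, 43 and 51 reads). In libraries 2 and 3 it thus went against the label. Exons of Sphk1 overlap those of Gm29292, on the other strand, by 192 bases. A value over the whole gene cannot check the deletion of Sphk1 either. In MGCs, Sphk1 was at 1.68, 1.88 and 0.460 FPKM in WT and at 0.432, 0.557 and 0.104 in the labelled knockout. Its mean in MGCs thus went with the label, at 0.364 against 1.34 FPKM in WT, with overlap between the genotypes. The genotype is therefore given as labelled. At least 8 of 9 granulosa cell markers were at 0.5 FPKM or more in every library. The 3 markers of MGCs summed to 379 to 1158 FPKM in MGCs and to 22.4 to 72.3 in cumulus cells. The 4 markers listed for cumulus cells went against that label, as they summed to 162 to 327 FPKM in MGCs and to 17.5 to 24.2 in cumulus cells, with Cbln1 at or near 0 in both.

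MGC library 3 labelled Sphk1/2gc-/- stood apart from the others before any comparison. Its correlations with the other 5 MGC libraries were 0.907 to 0.936 over 14559 genes, and the closest pairs of MGC libraries reached 0.986. It had the lowest of the 6 MGC values for 6 of the 7 hyaluronan genes and the highest for Hyal2. Of all 15279 genes tested in MGCs, 19.6% had their lowest value in this library and 45.4% their highest. Values without it are given beside many of the results in MGCs.

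Has2 (chr15:56665627-56694539, minus strand, GRCm38) encodes the hyaluronan synthase of the expanding cumulus. In cumulus cells it was at 59.8, 31.9 and 74.6 FPKM in WT libraries 1 to 3 and at 62.0, 88.3 and 89.6 FPKM in those labelled Sphk1/2gc-/-. In MGCs it was at 14.8, 12.7 and 18.3 FPKM in WT and at 25.8, 25.0 and 10.1 FPKM in the labelled knockout. Every cumulus library lay above every MGC library, whereas the genotypes overlapped in both cell types. Has2 has 4 exon blocks, 182 bases of which overlap those of the antisense gene Has2os, and the library kit does not mark strand.

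Tnfaip6 (chr2:52038009-52056686, plus strand) encodes TSG-6, the enzyme that moves heavy chains onto hyaluronan. WT MGC libraries 1 to 3 had 938, 889 and 747 FPKM, and those labelled Sphk1/2gc-/- had 1605, 1385 and 144 FPKM. In cumulus cells it was at 159, 122 and 282 FPKM in WT and at 425, 576 and 606 FPKM in the labelled knockout. WT MGCs thus held more than WT cumulus cells in all libraries, and by mean level Tnfaip6 stood at rank 20 of 29101 genes in WT MGCs and at rank 296 of 33137 in WT cumulus cells. In cumulus cells the genotypes did not overlap.

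Ptx3 (chr3:66219910-66225805, plus strand) encodes pentraxin 3, which joins the modified chains to each other. Its level in MGCs was 54.6, 51.1 and 44.2 FPKM in WT, against 114, 103 and 9.08 FPKM under the label Sphk1/2gc-/-. In cumulus cells it was at 124, 91.3 and 218 FPKM in WT and at 526, 337 and 522 FPKM in the labelled knockout. All 3 labelled knockout cumulus libraries were above the 3 of WT, and 2 of the 3 labelled knockout MGC libraries were above WT with the third below.

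Vcan (chr13:89655312-89742509, minus strand) encodes versican, a large proteoglycan that binds hyaluronan. MGCs of WT held 384, 366 and 485 FPKM, and MGCs labelled Sphk1/2gc-/- held 748, 614 and 134 FPKM. In cumulus cells it was at 15.1, 11.9 and 14.3 FPKM in WT and at 6.49, 9.05 and 8.32 FPKM in the labelled knockout. Vcan alone took 0.193% to 1.08% of all reads in an MGC library and 0.00939% to 0.0219% in a cumulus library. The annotation holds 9 transcripts of Vcan and 9 of Cd44, and values per gene do not separate them.

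Cd44 (chr2:102811141-102901665, minus strand) encodes the main cell surface receptor of hyaluronan. The MGC values were 7.26, 5.92 and 4.36 FPKM for WT, against 7.70, 9.19 and 0.661 FPKM for the label Sphk1/2gc-/-. In WT cumulus cells it was low, at 0.348, 0.222 and 0.328 FPKM or 38, 27 and 39 reads. In cumulus cells labelled Sphk1/2gc-/- it was at 4.90, 4.71 and 7.13 FPKM or 625, 631 and 927 reads, without overlap with WT.

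Cemip (chr7:83932857-84086502, minus strand) encodes a protein that binds hyaluronan and is needed for its breakdown in several cell types. In MGCs it was at 4.45, 3.11 and 4.90 FPKM in WT (898, 639 and 1011 reads) and at 0.193, 0.174 and 0.0588 FPKM in the labelled knockout (40, 36 and 13 reads). In cumulus cells it had 5, 1 and 3 reads in WT and 2, 0 and 0 reads in the labelled knockout, which is at or below a floor of 3 reads in all but WT library 1. Reads of Cemip thus came nearly all from MGCs, and there mostly from WT.

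Hyal2 (chr9:107567945-107572779, plus strand) encodes a hyaluronidase anchored to the cell surface. WT MGCs had 14.2, 15.4 and 16.5 FPKM, and MGCs labelled Sphk1/2gc-/- had 13.2, 15.4 and 20.8 FPKM. In cumulus cells it was at 8.94, 11.8 and 13.3 FPKM in WT and at 10.7, 8.70 and 9.97 FPKM in the labelled knockout. By the ratio of the highest to the lowest value it varied the least of the 7 genes, and the genotypes overlapped in both cell types.

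**Figure D1:**
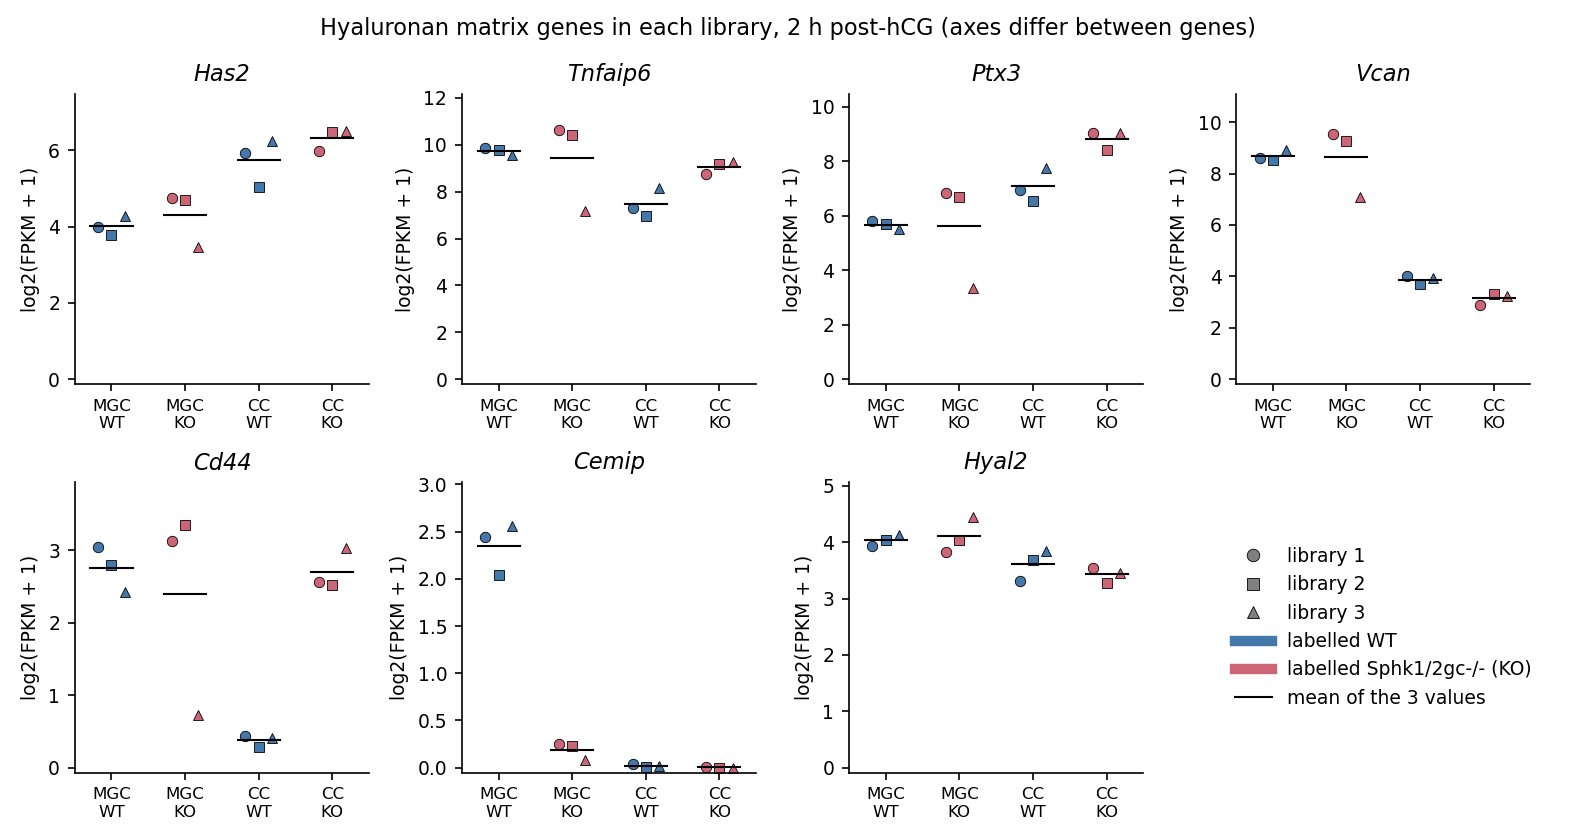
Level of each hyaluronan matrix gene as log2(FPKM + 1) in MGCs and cumulus cells (CC), with 1 point per library, the symbol giving the library number, blue for WT, red for libraries labelled Sphk1/2gc-/- and a bar for the mean of the 3 values. The red triangle of MGC library 3 lies below the other MGC points for every gene except Hyal2, and in cumulus cells the red points of Tnfaip6, Ptx3 and Cd44 lie above the blue ones.

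By mean FPKM, the order in WT MGCs was Tnfaip6 (858), Vcan (412), Ptx3 (49.9), Hyal2 (15.4), Has2 (15.3), Cd44 (5.84) and Cemip (4.16). The libraries of Hyal2 and Has2 overlapped there, as did those of Cd44 and Cemip, and the other neighbours did not. In WT cumulus cells the order was Tnfaip6 (188), Ptx3 (145), Has2 (55.4), Vcan (13.8), Hyal2 (11.3), Cd44 (0.299) and Cemip (0.0146). Tnfaip6 overlapped with Ptx3 and Vcan with Hyal2, and the other neighbours did not overlap. Vcan was therefore at rank 2 among the 7 genes in WT MGCs and at rank 4 in WT cumulus cells.

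The cell type comparison asks which cell type's libraries hold more of each transcript. WT MGC libraries also held more of the markers of other cells. Theca and stroma markers summed to 196 to 377 FPKM there and to 18.2 to 66.6 in WT cumulus cells. Leukocyte markers summed to 167 to 319 and 5.42 to 55.4, and endothelial ones to 12.9 to 16.7 and 0.315 to 1.16. Oocyte markers summed to 36.7 to 93.4 and 4.4 to 8.26. Granulosa cell markers were also higher there, at 9056 to 15495 against 3936 to 5082. The part of other cells in the differences was not tested. In WT, Has2 was higher in cumulus cells, and Tnfaip6, Vcan, Cd44 and Cemip were higher in MGCs. Has2 thus differed in the opposite direction from the hyaluronan partners Tnfaip6, Vcan and Cd44. The partner Ptx3 did not pass the test, but its mean was higher in cumulus cells, on the side of Has2. FPKM is scaled within each library, but the sources do not state that both cell types were processed with the same settings, so a scale was shared between separate files.

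The test was limma on log2(FPKM + 1), and calls needed an adjusted p (Benjamini-Hochberg over all genes tested) of at most 0.05 and at least a 2-fold difference. Of 15339 genes tested in WT, 50.4% were called, 15.9% as higher in cumulus cells and 34.5% as lower, so that 5 called of 7 is read against a background of about the same order. The difference for Has2 was 1.73 log2 units (SE 0.361, adjusted p = 0.000872), with a mean FPKM 3.63-fold higher in cumulus cells. The difference for Vcan was -4.80 (SE 0.481, adjusted p = 2.04e-06), with a mean FPKM 29.9-fold higher in MGCs. No value of Has2 or Vcan overlapped between the cell types, nor did 83.3% of all genes tested.

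Cd44 had a difference of -2.38 (SE 0.519, adjusted p = 0.00120), and its mean FPKM was 19.5-fold higher in WT MGCs. Tnfaip6 had -2.27 (SE 0.704, adjusted p = 0.0107), with a mean FPKM 4.57-fold higher in MGCs. Cemip had -2.33 (SE 0.138, adjusted p = 2.54e-08). On reads, the mean FPKM of Cemip was 284-fold higher in WT MGCs, with a 95% Poisson interval of 153 to 638 that covers counting error only. All 3 were thus higher in MGCs, and the difference of Cemip on the log2 scale is small beside its fold because 1 FPKM was added to each value.

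Ptx3 and Hyal2 were not called. The mean FPKM of Ptx3 was 2.89-fold higher in WT cumulus cells, with a difference of 1.42 (SE 0.719, 95% interval -0.15 to 2.99, adjusted p = 0.0870). Without MGC library 3 of both genotypes Ptx3 was called, at 1.34 (adjusted p = 0.00397). Hyal2 differed by -0.42 (SE 0.182, adjusted p = 0.0488), which is under 2-fold.

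The direction over all genes depended on the scale. With the medians of all libraries made equal, each difference moved up by 0.80 and the share of calls that were higher in cumulus cells went from 31.6% to 65.0%. With a correction for exon length it was 51.3%. Has2, Vcan, Cd44 and Cemip were called in the same direction under both, whereas Hyal2 turned to 0.37 (adjusted p = 0.0498) with equal medians and to 0.03 (adjusted p = 0.852) with the length correction. Tnfaip6 at -1.47 lost its call with equal medians (adjusted p = 0.107), and Ptx3 at 2.22 gained one (adjusted p = 0.0236). The median difference over genes was -0.06 for exon lengths of 1000 to 2000 bases and -0.86 above 8000 bases. The exons of Vcan cover 14462 bases, those of Cemip 12232 and those of Tnfaip6 1710, and the part of length in the differences of these genes beyond that correction was not tested.

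In the libraries labelled Sphk1/2gc-/-, 47.8% of 14983 genes were called between the cell types (14.5% higher in cumulus cells, 33.3% lower), among them Has2, Ptx3 and Vcan of 6 hyaluronan genes tested. Has2 was higher in cumulus cells by 2.01 (SE 0.361, adjusted p = 0.000295) and Ptx3 by 3.20 (SE 0.719, adjusted p = 0.00154). Vcan differed by -5.48 (SE 0.480, adjusted p = 7.22e-07), and its mean FPKM was 62.7-fold higher in MGCs. Without MGC library 3, the differences were 1.60 for Has2, 2.06 for Ptx3 and -6.25 for Vcan, and all 3 were called, as were 47.9% of 14787 genes.

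For Tnfaip6 and Cd44 the cell types labelled Sphk1/2gc-/- were not separated by the test. Tnfaip6 differed by -0.37 (SE 0.703, 95% interval -1.90 to 1.16, adjusted p = 0.641), and without MGC library 3 by -1.49 (SE 0.301, adjusted p = 0.000916), which is a call. Cd44 differed by 0.30 (SE 0.519, 95% interval -0.83 to 1.43, adjusted p = 0.610), and without that library by -0.54 (SE 0.202, adjusted p = 0.0307), which is under 2-fold. The call of Tnfaip6 and the direction of Cd44 thus rested on 1 library. Hyal2 differed by -0.68 (SE 0.182, adjusted p = 0.00488), also under 2-fold, and Cemip was not tested because its mean was under 0.5 FPKM in both groups.

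**Figure D2:**
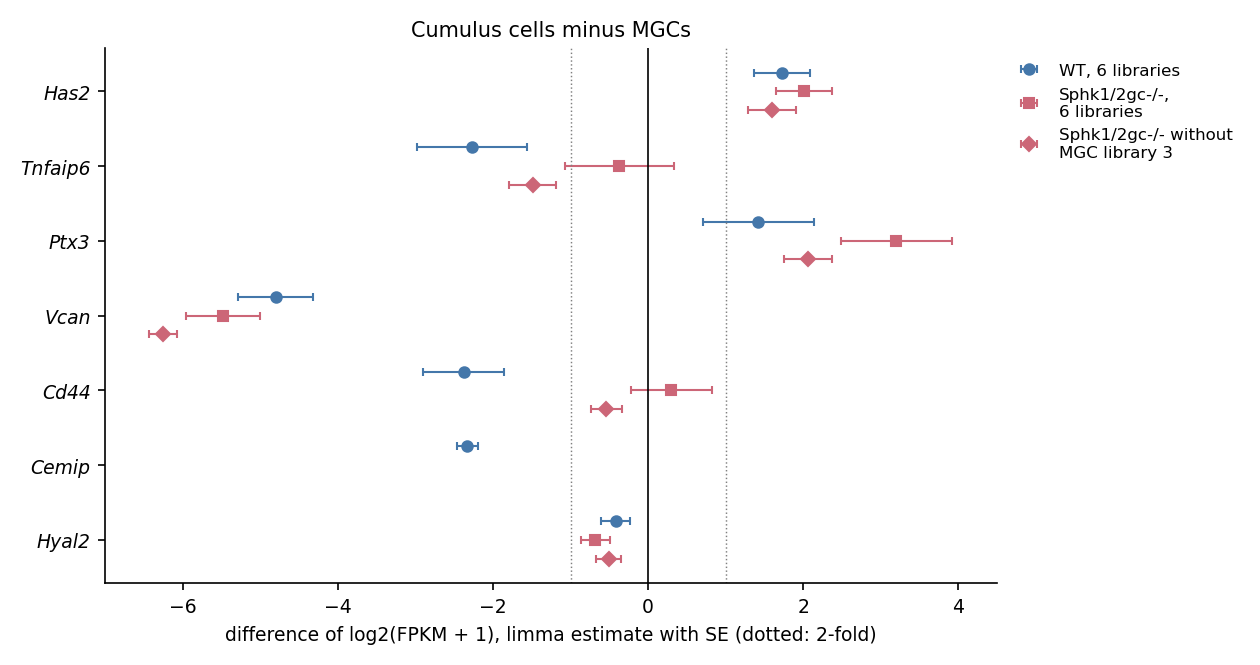
Difference of log2(FPKM + 1) between cumulus cells and MGCs (limma estimate, bars show SE) for each gene in WT, in libraries labelled Sphk1/2gc-/- and in these without MGC library 3, with dotted lines at 2-fold and values above 0 higher in cumulus cells. Has2 lies to the right and Vcan far to the left in all 3 series, and Cemip was tested in WT only.

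A ratio taken within a library does not depend on how libraries were scaled to each other. For each FPKM of Has2, WT MGCs had 40.8 to 69.9 of Tnfaip6, 26.0 to 28.8 of Vcan and 2.42 to 4.02 of Ptx3. WT cumulus cells had 2.66 to 3.82 of Tnfaip6, 0.191 to 0.373 of Vcan and 2.07 to 2.93 of Ptx3. The ranges of Tnfaip6 and Vcan were far apart and those of Ptx3 overlapped. In libraries labelled Sphk1/2gc-/-, the ratio of Tnfaip6 to Has2 was 6.52 to 6.86 in cumulus cells, above the WT range, and that of Vcan was 0.0928 to 0.105, below it. The ratio of Cd44 to Has2 went from 0.00439 to 0.00696 in WT cumulus cells to 0.0533 to 0.0796 in labelled knockout ones. The ratios are descriptions and were not tested.

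**Figure D3:**
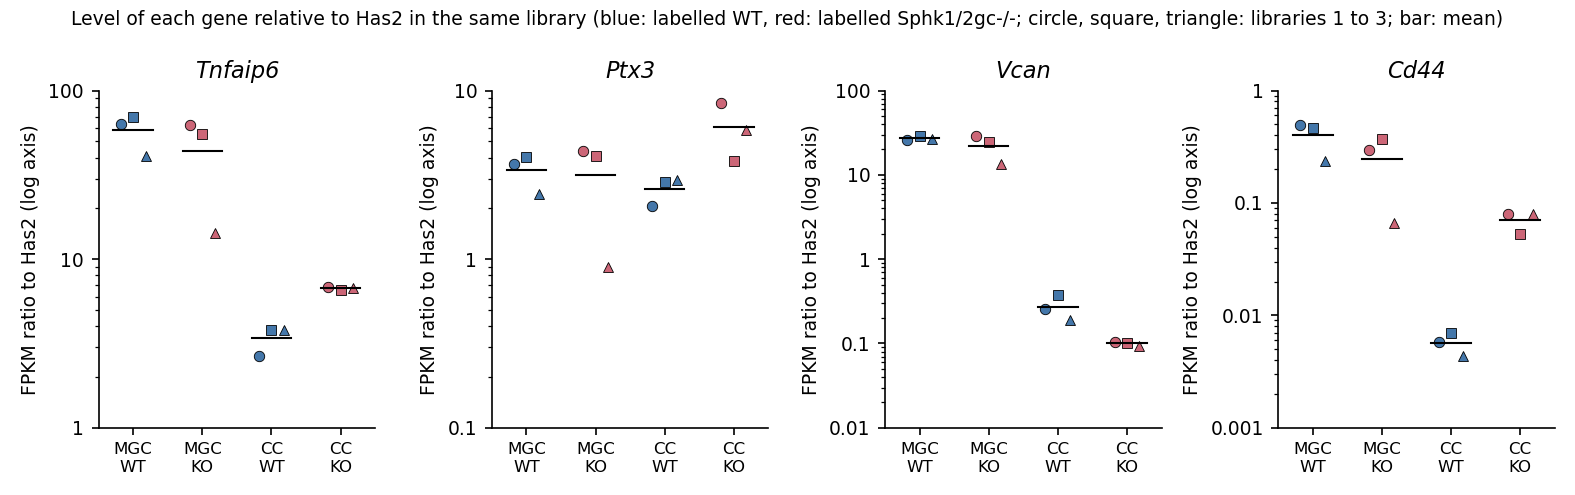
FPKM of Tnfaip6, Ptx3, Vcan and Cd44 divided by that of Has2 in the same library, on log axes that differ between genes, with 1 point per library and a bar for the mean. Tnfaip6 and Vcan sit at 13.3 or more for each unit of Has2 in all MGC libraries and at 6.86 or less in all cumulus libraries.

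The genotype comparison in cumulus cells asks whether loss of the sphingosine kinases, which make sphingosine 1-phosphate, changes the transcripts of the matrix at this time. Ptx3, Tnfaip6 and Cd44 rose in cumulus cells labelled Sphk1/2gc-/-. Of 12205 genes tested, 8.04% were called, 4.19% as higher and 3.85% as lower, beside 3 of 6 hyaluronan genes tested, all of them higher. The groups did not overlap, in either direction, for 4 of the 6 genes and for 42.3% of all genes tested. In the study, quantitative RT-PCR at 4 h post-hCG gave lower mRNA of genes related to cumulus expansion in Sphk1/2gc-/- mice. Its text does not name those genes, and the time and method differ from those of these libraries. The qRT-PCR primers of the study include pairs for Has2, Tnfaip6 and Ptx3, but its text does not state which assay each pair served. If Ptx3 and Tnfaip6 were among those genes, their direction there was opposite to the rise in these libraries.

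Cd44 rose by 2.32 on the log2 scale (SE 0.173, adjusted p = 0.000350), and its mean FPKM was 18.7-fold higher than in WT. Ptx3 rose by 1.73 (SE 0.321, adjusted p = 0.00838), with a mean FPKM 3.19-fold higher. Tnfaip6 rose by 1.58 (SE 0.300, adjusted p = 0.00937), with a mean FPKM 2.85-fold higher. All 3 were called in all 15 alternatives, those without each single cumulus library included.

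The other 3 genes tested were not called. Vcan differed by -0.73 (SE 0.171, 95% interval -1.12 to -0.33, adjusted p = 0.0203), a mean FPKM 1.73-fold lower and thus under the 2-fold limit, with no overlap between the genotypes. Has2 differed by 0.58 (95% interval -0.12 to 1.29, adjusted p = 0.199) and Hyal2 by -0.18 (95% interval -0.59 to 0.22, adjusted p = 0.486). The synthase thus did not pass the test, but a difference as large as 1.29 log2 units lies within its interval, and whether it changed less than Ptx3 or Tnfaip6 was not tested.

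Markers of other cells were read beside these results. Leukocytes also express Cd44 and Ptx3. Their 12 markers summed to 5.42 to 55.4 FPKM in WT cumulus cells and to 7.77 to 54.3 in labelled knockout ones, with 1 to 4 of them at 0 in a WT library and 3 in each labelled knockout library. Ptprc, which defines leukocytes, was at 0.0213 to 0.0237 FPKM in WT cumulus cells and at 0.00829 to 0.0377 in labelled knockout ones. The mean of 5 of the 12 was lower and that of 7 higher in labelled knockout cumulus cells. The neutrophil genes S100a8 and S100a9 were lower without overlap, whereas the macrophage gene Adgre1 went from 0, 0 and 0.0877 FPKM to 0.278, 0.0312 and 0.353, and Cd68 from 0.692, 0.929 and 2.63 to 2.53, 1.73 and 3.90. The part of these cells in the differences of Cd44 and Ptx3 was not tested. Theca and stroma express Vcan, and their 10 markers summed to 18.2 to 66.6 FPKM in WT cumulus cells and to 12.0 to 33.7 in labelled knockout ones, with up to 1 at 0, and their part in the difference of Vcan was not tested. In bulk RNA, fewer cells of a type and less RNA per cell cannot be told apart.

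In MGCs, Cemip was the hyaluronan gene that fell. Of 15279 genes, 6 (0.0393%) were called, 5 of them as lower (0.0327%), and 1 of the 7 hyaluronan genes was among these. An unadjusted p of 0.05 or less was reached by 9.20% of the genes. Cemip differed by -2.16 (SE 0.190, adjusted p = 0.0413), and its mean FPKM was 29.3-fold lower than in WT with a Poisson interval of 24.0 to 37.1. Its genotypes did not overlap, which held in the lower direction for 9.17% of all genes tested. The study lists Cemip among genes it chose on these libraries, so its direction is no independent evidence.

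The call of Cemip was close to the limit. With the replicate number as a block its adjusted p was 0.0843, and without 1 library at a time it was 0.0105 to 0.336. Among these it was called only without MGC library 3 labelled Sphk1/2gc-/- (-2.11, adjusted p = 0.0105). Leukocyte markers moved with it, as their sum was 167 to 319 FPKM in WT MGCs (0 to 1 of 12 at 0) and 25.8 to 120 in labelled knockout ones (none at 0), and their part in the fall of Cemip was not tested. The markers did not move alike. S100a9, a neutrophil protein, had 139, 112 and 90.9 FPKM in WT MGCs, against 16.5, 20.2 and 4.56 in the labelled knockout. S100a8, its partner, had 53.3, 44.7 and 36.5 FPKM against 9.27, 10.9 and 2.15. These 2 were below WT without overlap, and no marker was above WT without overlap. Of the 12, the mean was lower for 6 and higher for 6, and without library 3 it was lower for 4 and higher for 8. Ptprc, found on all leukocytes, had 1.22, 0.817 and 0.580 FPKM in WT MGCs, against 1.37, 1.51 and 0.0544 in the labelled knockout.

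No other hyaluronan gene passed the test in MGCs, and their intervals were wide. The difference was 0.30 for Has2 (95% interval -0.55 to 1.14) and -0.04 for Ptx3 (-2.14 to 2.05). It was -0.32 for Tnfaip6 (-2.39 to 1.75), although its mean FPKM was 1.22-fold higher. It was -0.05 for Vcan (-1.51 to 1.41), -0.35 for Cd44 (-1.93 to 1.23) and 0.07 for Hyal2 (-0.36 to 0.50). The adjusted p of Has2 was 0.846, that of Ptx3 0.995 and that of Tnfaip6 0.945.

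MGC library 3 labelled Sphk1/2gc-/- lay far from the others for most of these genes. The mean of labelled knockout libraries 1 and 2 was 12.8-fold its value for Cd44, 11.9-fold for Ptx3, 10.4-fold for Tnfaip6, 5.09-fold for Vcan and 2.53-fold for Has2. Hyal2 went the other way and was 1.46-fold higher in library 3. Libraries 1 and 2 lay above all WT MGC libraries for Has2, Ptx3, Tnfaip6, Vcan and Cd44, with means 1.45 to 2.17 times the WT mean.

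Without that library, 170 of 15215 genes (1.12%) were called, 116 of them as higher (0.762% of the genes tested), and Ptx3 was among them. The difference of Ptx3 was 1.10 (SE 0.117, adjusted p = 0.0185). Tnfaip6 had 0.80 (adjusted p = 0.0750), Vcan 0.73 (adjusted p = 0.107), Has2 0.72 (adjusted p = 0.0929) and Cd44 0.48 (adjusted p = 0.255), and none of these was called. Without library 3 of both genotypes, 3.09% of 15433 genes were called, and Ptx3 had 1.02 (adjusted p = 0.00563), Has2 0.85 (adjusted p = 0.0106), Vcan 0.85 (adjusted p = 0.0166) and Tnfaip6 0.71 (adjusted p = 0.0195), of which Ptx3 alone passed 2-fold. The direction of Ptx3, Tnfaip6, Vcan and Cd44 in MGCs thus depended on 1 library.

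**Figure D4:**
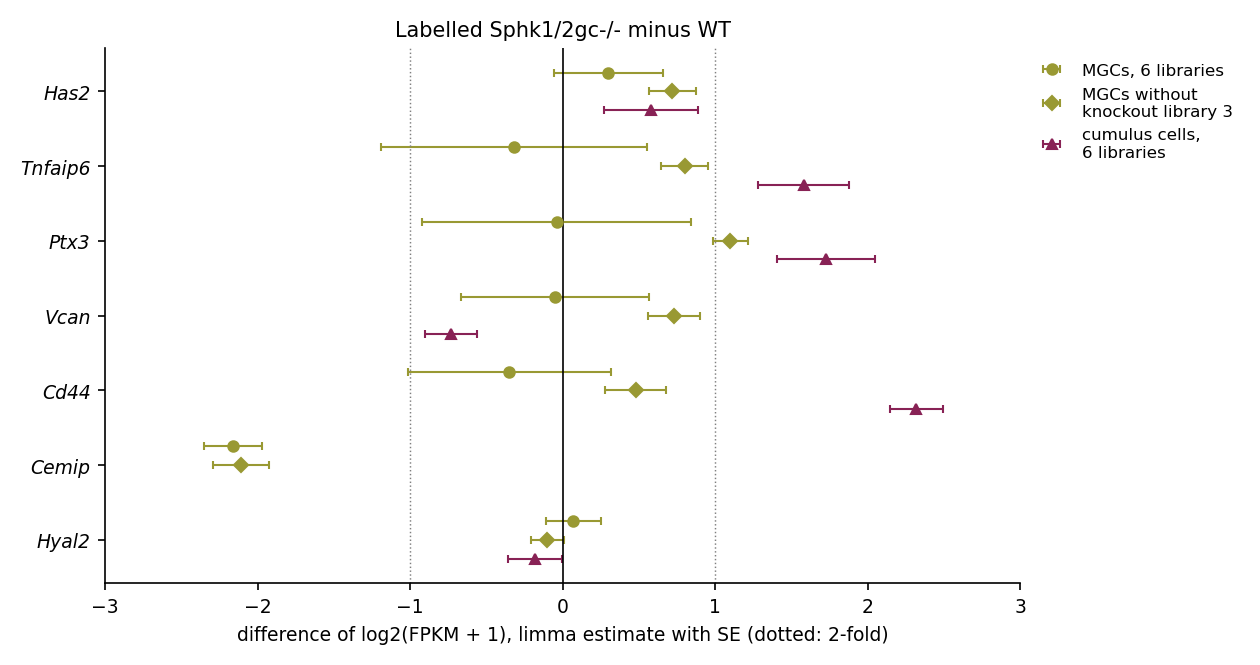
Difference of log2(FPKM + 1) between libraries labelled Sphk1/2gc-/- and WT (limma estimate, bars show SE) in MGCs, in MGCs without labelled knockout library 3 and in cumulus cells, with dotted lines at 2-fold. The estimates of Ptx3, Tnfaip6, Vcan and Cd44 in MGCs change sign when library 3 is left out, those of Ptx3, Tnfaip6 and Cd44 in cumulus cells lie beyond 2-fold, and Cemip was not tested in cumulus cells.

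A single model of the 12 libraries tested whether the genotype difference itself differed between cell types. With an adjusted p of at most 0.05 as the limit, 3.93% of 15869 genes were called, and of the 7 hyaluronan genes Cemip was. Its difference of differences was 2.14 (SE 0.196, adjusted p = 0.000604), and in cumulus cells it was at or near the floor in both genotypes, where no fall could be seen. Cd44 had 2.67 (SE 0.735, 95% interval 1.07 to 4.28, adjusted p = 0.0637), and without MGC library 3 it was called at 1.84 (SE 0.271, adjusted p = 0.00704). Vcan had -0.68 (adjusted p = 0.610), and without that library it was called at -1.45 (SE 0.241, adjusted p = 0.0118) among 6.45% of genes. Ptx3 had 1.78 (95% interval -0.45 to 4.00, adjusted p = 0.338) and Tnfaip6 1.90 (95% interval -0.27 to 4.07, adjusted p = 0.291), so that their rise in cumulus cells was not shown to differ from MGCs. Without MGC library 3 these were 0.63 (adjusted p = 0.404) and 0.78 (adjusted p = 0.272).

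The RefSeq promoter sequences of the 3 genes that rose in cumulus cells, and of Cemip, which fell in MGCs, are shown because these are the genes that moved with genotype. They are windows of the 250 bases before the RefSeq start on GRCm38.p6, 5′ to 3′ on the strand of the gene. Capitals mark matches to the motifs TGANTCA (AP-1), TGACG (part of a cAMP response element), GGGCGG (GC box), CCAAT and TATAAA, searched on both strands. The windows are chr3:66219637-66219886 (plus) for Ptx3, chr2:52037863-52038008 (plus) for Tnfaip6, chr2:102901666-102901915 (minus) for Cd44 and chr7:84086506-84086755 (minus) for Cemip. Of the 7 genes, 6 had a window, and Has2 did not. The last 104 bases of the window of Tnfaip6 lie inside the gene as GENCODE places it and are not printed, which leaves 146.
Ptx3: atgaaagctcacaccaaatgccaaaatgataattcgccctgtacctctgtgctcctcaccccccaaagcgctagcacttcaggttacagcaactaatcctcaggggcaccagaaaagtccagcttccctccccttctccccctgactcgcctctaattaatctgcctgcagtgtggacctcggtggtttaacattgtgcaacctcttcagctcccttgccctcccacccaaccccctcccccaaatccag
Tnfaip6: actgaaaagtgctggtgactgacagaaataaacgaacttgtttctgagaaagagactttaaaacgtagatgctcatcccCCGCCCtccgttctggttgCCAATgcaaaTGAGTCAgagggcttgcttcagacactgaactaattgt
Cd44: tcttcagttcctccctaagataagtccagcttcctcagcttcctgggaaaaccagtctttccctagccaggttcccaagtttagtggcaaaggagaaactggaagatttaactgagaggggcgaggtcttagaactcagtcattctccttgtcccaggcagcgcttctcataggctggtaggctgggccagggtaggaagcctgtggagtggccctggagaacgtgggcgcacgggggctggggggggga
Cemip: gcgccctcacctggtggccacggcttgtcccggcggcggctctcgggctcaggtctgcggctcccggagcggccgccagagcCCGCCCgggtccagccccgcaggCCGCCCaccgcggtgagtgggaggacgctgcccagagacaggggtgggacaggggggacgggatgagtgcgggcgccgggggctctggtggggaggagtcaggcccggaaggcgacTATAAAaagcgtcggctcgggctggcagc

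The window of Tnfaip6 held an AP-1 match at -142 to -136 from the start, a GC box at -171 to -166 and CCAAT boxes at -152 to -148 and -81 to -77, the latter inside the gene as GENCODE places it. The window of Cemip held GC boxes at -168 to -163 and -145 to -140 and a TATA box at -29 to -24. The windows of Ptx3 and Cd44 held none of these letters, so the 3 genes that rose in cumulus cells shared no match. Of 32851 windows of the same length, 6.75% held an AP-1 match, 17.8% TGACG, 32.7% a GC box, 33.8% CCAAT and 12.4% TATAAA. A match is a description of the letters and no site of binding.

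The rest of the pathway was read from 6 lists with 55 other genes. In cumulus cells labelled Sphk1/2gc-/-, 31 of them were tested, 7 rose and 2 fell, and the median difference was -0.00 against -0.06 over all genes. In MGCs, 39 were tested and limma called none, nor did voom on the recovered reads. Of these, 3 had an unadjusted p of 0.05 or less (Itih2, Lyve1 and Adamts5, all below WT), 31 lay below 0 and the median was -0.23 against -0.00 over all genes. Without labelled knockout library 3, none of 40 was called by limma, 8 had an unadjusted p of 0.05 or less, 21 lay below 0 and the median was -0.01 against -0.09, so that the lean below 0 rested on that library. The shares of all genes called were 8.04% in cumulus cells and 0.0393% in MGCs. The lists were chosen with results of these data known, so that their counts are descriptions.

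Among synthases and enzymes that make the sugar precursors, 3 of 5 tested rose in cumulus cells labelled Sphk1/2gc-/-. Has1, a second synthase, was at 0.416, 0.266 and 1.01 FPKM in WT and at 2.36, 4.60 and 9.53 in the labelled knockout, a rise of 1.93 (SE 0.381, adjusted p = 0.0107). Ugdh, which makes UDP-glucuronic acid, went from a mean of 15.8 to 36.7 FPKM (1.14, adjusted p = 0.00575). Uap1, which makes UDP-N-acetylglucosamine, went from 41.7 to 86.2 FPKM (1.01, adjusted p = 0.0162). The 2 sugars are the building blocks of hyaluronan. The genotypes did not overlap for any of the 3 genes, nor for 42.3% of all genes tested in cumulus cells.

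Among matrix partners, 2 of 3 tested rose. Itih2 encodes a heavy chain that TSG-6 transfers onto hyaluronan, and it was at 0.0937, 0.503 and 0.189 FPKM in WT cumulus cells and at 2.10, 5.92 and 5.16 in the labelled knockout (2.03, SE 0.297, adjusted p = 0.00382). Itih5, of the same family, was at 1.20, 1.10 and 0.980 FPKM in WT and at 12.1, 33.5 and 30.7 in the labelled knockout (3.54, SE 0.338, adjusted p = 0.000847). The genotypes did not overlap for either gene in cumulus cells, nor for 42.3% of all genes tested there. In MGCs their estimates were -1.56 for Itih2 (adjusted p = 0.485) and -0.64 for Itih5 (adjusted p = 0.761). The genotype difference itself differed between the cell types for both, by 3.59 for Itih2 (adjusted p = 0.0216) and by 4.18 for Itih5 (adjusted p = 0.0135). Without MGC library 3 these were 3.10 (adjusted p = 0.0220) and 3.54 (adjusted p = 0.00605).

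Among receptors and their linkers, Ezr rose and Hmmr fell out of 5 tested. Ezr encodes ezrin, which links the tail of CD44 to actin, and it went from a mean of 16.9 to 50.7 FPKM (1.53, SE 0.226, adjusted p = 0.00388). Hmmr encodes a hyaluronan receptor that is also a spindle protein of dividing cells. It was at 24.2, 24.3 and 17.7 FPKM in WT and at 10.7, 5.05 and 4.28 in the labelled knockout (-1.66, SE 0.297, adjusted p = 0.00741). Their genotype difference also differed between the cell types, at 1.72 for Ezr (adjusted p = 0.0266) and -1.82 for Hmmr (adjusted p = 0.0334), and without MGC library 3 at 1.47 (adjusted p = 0.0260) and -1.65 (adjusted p = 0.0436). The same test called Uap1 (1.13, adjusted p = 0.0471, not called without MGC library 3) and Lyve1, a receptor of lymphatic endothelium (0.61, adjusted p = 0.0473), whose 3 cumulus libraries labelled Sphk1/2gc-/- were listed at 0.

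None of 5 genes of breakdown and none of 3 versican proteases tested was called in cumulus cells. Hexa, a lysosomal hexosaminidase subunit, passed the adjusted p but not 2-fold at 0.75 (adjusted p = 0.0440), as did the protease Adamts9 at -0.75 (adjusted p = 0.0180). Of 10 ovulatory inducers, Runx1 rose from a mean of 7.11 to 34.0 FPKM (2.09, adjusted p = 0.000685) and Lhcgr, the LH receptor, fell from 13.0 to 3.12 FPKM (-1.74, adjusted p = 0.00933). Lhcgr is also a marker listed for MGCs. In cumulus cells the MGC marker Cyp11a1 was at 5.86 to 16.3 FPKM in WT and at 0.608 to 3.20 in the labelled knockout. The MGC marker Nppc was at 14.0 to 37.3 and 19.1 to 37.0 FPKM, with overlap. The part of MGCs in the differences of Lhcgr and Vcan was not tested. Areg was at 43.4 to 93.5 FPKM in WT cumulus cells and at 50.1 to 90.8 in labelled knockout ones, and Ptgs2 at 64.1 to 127 and 75.6 to 115. The EGF-like ligand and the prostaglandin synthase therefore overlapped between the genotypes where Ptx3 and Tnfaip6 did not. Egfr, on the same list, was at 1.89 to 3.26 FPKM in WT cumulus cells and at 1.24 to 1.35 in labelled knockout ones. It was lower without overlap but was not called (-0.53, adjusted p = 0.0624). Of all genes tested in cumulus cells, 42.3% did not overlap.

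**Figure D5:**
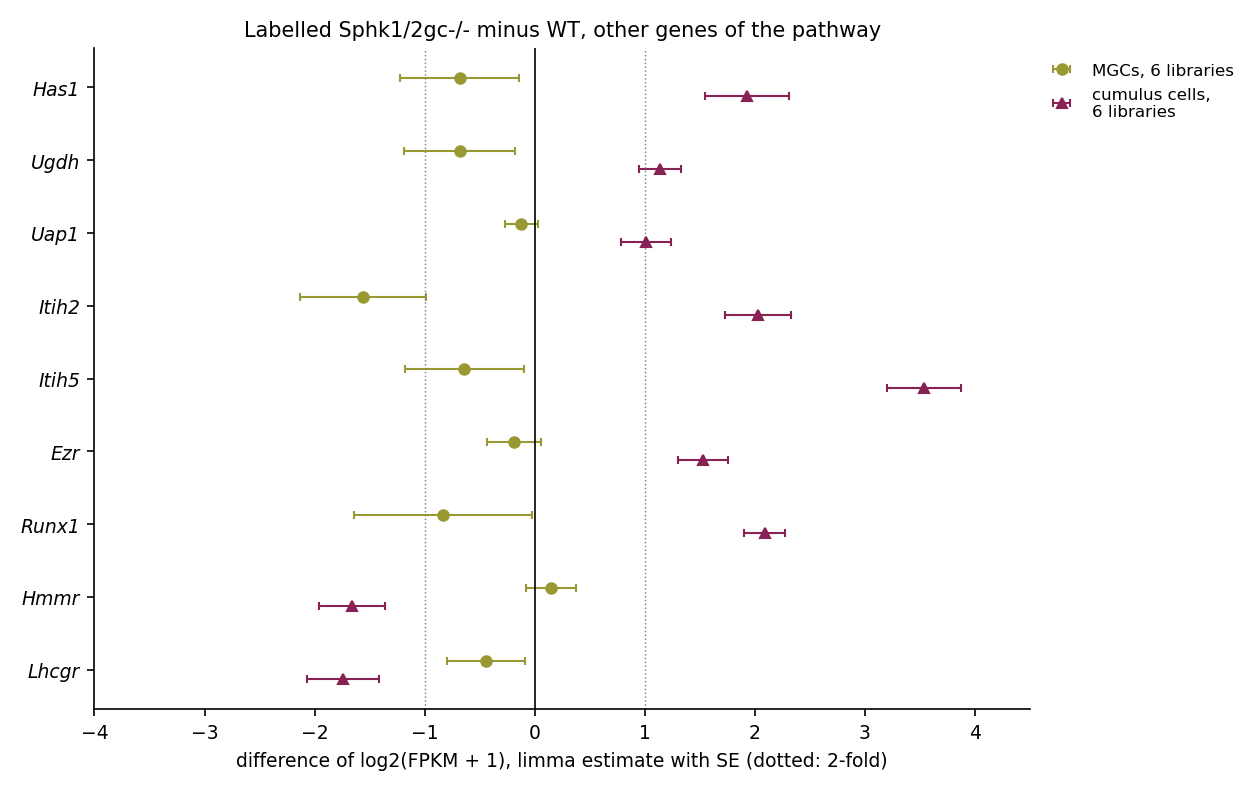
Difference of log2(FPKM + 1) between libraries labelled Sphk1/2gc-/- and WT (limma estimate, bars show SE) for the 9 other pathway genes called in cumulus cells, with the estimate in MGCs beside it and dotted lines at 2-fold. The 7 genes that rose in cumulus cells lie below 0 in MGCs, where none of them was called and where, without library 3, their estimates are -1.07 to 0.18.

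Inducers of expansion were also low in MGC library 3 labelled Sphk1/2gc-/-. Of the 10 inducers, 8 had their lowest MGC value there, beside 19.6% of all 15279 genes tested in MGCs (45.4% had their highest). Areg was at 340 FPKM in that library and at 1552 to 1940 in the other 5. Ereg was at 157 FPKM against 854 to 1628, Ptgs2 at 24.6 against 268 to 447, and Runx1 at 4.89 against 27.2 to 51.0. The library thus combined low matrix genes with low inducers, and the cause was not tested.

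Between the cell types of WT, 3 of 39 other pathway genes tested were called as higher in cumulus cells and 26 as lower, with a median of -1.77 against -0.58 over all genes. Of all 15339 genes tested, 15.9% were called as higher in cumulus cells and 34.5% as lower. Higher in cumulus cells were Hmmr (2.40, adjusted p = 9.22e-06), Ugp2, which makes UDP-glucose (1.25, adjusted p = 4.89e-06), and Ptger2, a prostaglandin receptor (1.00, adjusted p = 0.00289). The versican proteases Adamts1 (-5.19), Adamts4 (-3.47) and Adamts9 (-2.82) were lower, in the same direction as Vcan. Has1 (-3.29), Itih2 (-3.23), Itih5 (-4.55) and Bcan (-1.20) were lower as well, so that Has2 and Has1 differed in opposite directions between the cell types.

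The EGF-like ligands Areg (-4.52), Ereg (-5.29) and Btc (-3.42) were lower in WT cumulus cells than in MGCs, as were Egfr (-1.77), Pgr (-5.94), Lhcgr (-4.56) and Runx1 (-2.39). Receptors and linkers on the same side were Lyve1, Stab1, Tlr2, Ezr, Rdx and Msn (-1.29 to -3.24). Genes of breakdown on that side included Cemip2, Hexa and Gusb (-1.09 to -1.82), and of precursors Gfpt1 (-1.78). Most genes of the pathway thus lay on the MGC side, as did 10060 of all 15339 genes tested, with the synthase Has2 on the other. The shift of 0.80 that equal medians bring changes the sign of none of these 26 differences but ends the call of 9, Gfpt1, Bcan, Lyve1, Stab1, Rdx, Hexa, Gusb, Egfr and Runx1. With equal medians, 17 were called as lower and 4 as higher.

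In the libraries labelled Sphk1/2gc-/-, 2 of 37 other pathway genes tested were called as higher in cumulus cells and 19 as lower, beside 14.5% and 33.3% of all 14983 genes tested. The pathway genes called as higher were Uap1 (1.99) and Ptger2 (1.09). Those called as lower included Gfpt1, Bcan, Stab1, Tlr2, Ezr, Rdx, Msn, Cemip2, Adamts1, Adamts4, Adamts9, Areg, Ereg, Btc, Egfr, Pgr and Lhcgr (-1.27 to -5.85). Has1, Itih2, Itih5, Runx1, Ugp2, Hmmr, Lyve1, Hexa and Gusb were called in WT and not here. Of these, Has1 (-1.34, adjusted p = 0.00941) and Itih5 (-1.02, adjusted p = 0.0266) were called without MGC library 3. Ptgs2 was called without that library as well (-2.09, adjusted p = 4.81e-05), and Bcan was not (-0.91). With equal medians, 12 were called as lower and 6 as higher.

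The 7 genes did not vary as a block. Within the 6 MGC libraries, Ptx3 and Tnfaip6 had a Pearson r of 0.99 and Ptx3 and Cd44 of 0.97 on the log2 scale, and the 6 values share library 3. Within the 6 cumulus libraries the r was 0.94 for Ptx3 and Tnfaip6, 0.92 for Ptx3 and Cd44 and -0.82 for Ptx3 and Vcan. Vcan thus ran with Ptx3 in MGCs (0.97) and against it in cumulus cells, where the 6 values share the difference between genotypes. Over all 12 libraries the r of Has2 with Vcan was -0.81, and these values share the difference between cell types.

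Other genes with the most similar pattern were sought among 6719 genes over the 12 libraries. For Cd44 the highest Pearson r was with Runx1 (0.971), then Trib1 (0.962) and Oasl2 (0.953). For Vcan they were Gm17491 (0.993), Cemip2 (0.991), which encodes a hyaluronidase of the cell surface, and Hs3st1 (0.991). Ptx3 had Crem (0.982), Tspan13 (0.977) and D16Ertd472e (0.970), and Tnfaip6 had Rnf125 (0.972), Nfkbiz (0.967) and Il1r1 (0.964). Runx1 and Cemip2 are in the pathway lists, and the rest of these are not.

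Has2 was closest to Gch1 (0.973), Mrap (0.970) and Nmi (0.958). Hyal2 was closest to Rab1b (0.973), Pcyt2 (0.969) and Gpaa1 (0.968). Cemip was closest to Gm2a (0.969), Retnlg (0.929), which is a transcript of neutrophils, and Atg4c (0.916). These are descriptions over 12 libraries that share cell type and genotype.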

How the data were processed

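RNA of MGCs and cumulus cells from WT mice and mice labelled Sphk1/2gc-/- was sequenced in 12 libraries, 3 per group. The authors deposited FPKM values, in 1 table per cell type. The submitters' processing notes name HISAT2 and GRCm38, and the counting tool, annotation and settings are not given in the sources used here. Gene symbols, positions and exon lengths were taken from GENCODE M21 (GRCm38). FPKM times exon length gave whole reads, within 0.02 reads, for 90.6% to 92.1% of values in a library, and the recovered reads came to 16100364 to 19761604 per library (median 17257224.5). Intervals and the floor of 3 reads cover counting error only.

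The 7 members and the gene lists were chosen with earlier results of these data known. All members are named, as are pathway genes called in a comparison (a few called between cell types are not reported here), the 3 genes of most similar pattern for each member (mean of at least 5 FPKM), and Sphk1 and Sphk2. Ptgs2, Adamts5, Cbln1, Cyp11a1, Nppc, Ptprc, S100a8, S100a9, Adgre1 and Cd68, and the values of Areg, Ereg, Egfr, Hexa, Adamts9, Itih2 and Lyve1 in genotype comparisons that did not call them, were named after their values were seen.

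limma 3.58.1 in R 4.3.3 was fitted with an intensity trend on log2(FPKM + 1) to genes that averaged 0.5 FPKM or more in a group compared. The study's limits are a fold change of 2 and a p of 0.05, and no test is named for these data. Genotypes were compared within each table, and cell types and the difference of differences in a model of all 12 libraries, for which a common scaling of both tables is not stated. SE is limma's standard error. The scripts were tested on simulated data. Alternatives were another pseudocount (0.1), other filters, equal medians, variance models without trend or robust, voom on the reads, the replicate number as a block, single libraries left out, no fold limit and, chosen after seeing the data, a correction for exon length and the counts of other pathway genes with equal medians or without MGC library 3 labelled Sphk1/2gc-/-. Same-numbered MGC libraries had correlations of deviations from the group means of 0.235, 0.172 and 0.230, and cumulus libraries of -0.154, -0.0513 and 0.120. The labels state no shared animal, so an adjusted p with the block is given for MGCs only. Elsewhere the block enters only the counts of calls under the alternatives.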

Additional observations from a re-analysis of the deposited data

Results flagged for a closer look

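Cemip was the hyaluronan gene whose genotype difference differed between the cell types by a test of that difference (2.14, SE 0.196, adjusted p = 0.000604, limma). It was lower in 3 of 3 MGC libraries labelled Sphk1/2gc-/-. Its cumulus cell values were 0 to 5 reads in each library, so that the test compares a fall in MGCs with a gene near the floor.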

How the results depend on the processing

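In cumulus cells, Ptx3, Tnfaip6 and Cd44 were called between the genotypes under every alternative, and Vcan was added without the fold limit (4 in all). The count over all genes was 981, and 1674 with a pseudocount of 0.1, 1965 with voom, 2725 without a fold limit and 757 to 1305 without single libraries. In MGCs, 1 hyaluronan gene and 6 genes in all were called. These became 0 and 1 without a filter, with equal medians or with the length correction, 0 and 0 with voom, 0 and 3 with the replicate block, 0 to 2 and 0 to 170 without single libraries, and 2 and 477 without replicate 3 of both genotypes.

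Without single libraries the difference in MGCs ranged from -0.65 to 1.10 for Ptx3, -0.93 to 0.80 for Tnfaip6, -0.51 to 0.73 for Vcan, -0.83 to 0.48 for Cd44 and -0.10 to 0.21 for Hyal2. The direction reversed for Ptx3 without WT library 1 (0.02), for Vcan without WT library 3 (0.07) and, without labelled knockout library 3, for Ptx3 (1.10), Tnfaip6 (0.80), Vcan (0.73), Cd44 (0.48) and Hyal2 (-0.10). Without replicate 3 of both genotypes these 5 were at 1.02, 0.71, 0.85, 0.32 and -0.05.

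Between cell types, no fold limit gave 12052 calls in WT and 11440 in the labelled knockout, against 7735 and 7164. Equal medians reversed Hyal2 (0.37 in WT, 0.13 in the labelled knockout) and Tnfaip6 in the labelled knockout (0.44), where the share of calls higher in cumulus cells went from 30.3% to 66.2%. The length correction reversed Hyal2 in WT (0.03). Tnfaip6 in the labelled knockout was at 0.24 without MGC library 1 and at 0.14 without library 2 (range -1.49 to 0.24), and Cd44 at -0.54 without library 3, alone or of both genotypes (range -0.54 to 0.77).

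For the difference of differences, 1 hyaluronan gene and 624 genes were called. A pseudocount of 0.1 gave 2 hyaluronan genes, voom 0, no filter 327 genes and the replicate block 56. Without single libraries there were 1 to 3 hyaluronan genes and 108 to 1189 genes, and without replicate 3 of both genotypes in MGCs 3 and 2474. Has2 reversed to -0.13 without MGC labelled knockout library 3, to -0.06 without cumulus WT library 2 (range -0.13 to 0.54) and to -0.26 without replicate 3 of both. The block changed no call of a hyaluronan gene other than Cemip in MGCs. Apart from the smaller number of libraries, the cause of these shifts was not tested. At 16100364 reads or more per library, Cemip in cumulus cells was at the limit of detection.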
